A study of Mus musculus with 21 samples.

Results

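The comparison described here set 3 D5+GSKJ4 libraries against 3 untreated D5 libraries, 6 of the 21 RNA-seq libraries of a study of Kdm6b in motor neuron differentiation. The libraries were chosen by their labels, which give the stage, the treatment and a biological replicate number from 1 to 3. Both groups were wild-type C57BL/6 mouse embryonic stem cells that had been kept on mitomycin-treated embryonic fibroblast feeders and then differentiated as embryoid bodies. Both received retinoic acid and the Sonic hedgehog agonist SAG from D2, and, for the hypaxial motor column protocol, the gamma-secretase inhibitor DAPT at D4. The treated group also received GSKJ4, an inhibitor of the Kdm6 enzymes, during the day from D4 to D5. The dose of GSKJ4 for RNA-seq and the vehicle of the untreated cultures were not given in the sources used here. Each library was polyadenylated RNA of a whole mixed culture. A lower level in the treated group can therefore come from fewer cells of a type or from less RNA per cell. These cannot be told apart in the libraries. From immunostaining for Isl1, Lhx3 and Mnx1 at D5, in a representative experiment, the study reported that GSKJ4 lowered the number of cells reaching the newborn motor neuron stage.

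Kdm6a and Kdm6b remove the repressive methyl marks from lysine 27 of histone H3, and GSKJ4 blocks that enzyme activity in both. In the ventral spinal cord, progenitors marked by Olig2 and Neurog2 leave the cell cycle and turn on the LIM-homeodomain factors Isl1 and Lhx3, which together with Mnx1 set motor neuron identity. At D5 such cultures hold mainly newborn motor neurons. The study asked whether blocking Kdm6 activity at this stage lowers the genes that define them.

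The labelled cell type was checked on its markers. *Tubb3*, the neuronal tubulin, lay between 894 and 1082 FPKM (a read count scaled by gene length and library size) in the untreated libraries, and *Isl1*, *Mnx1* and the acetylcholine vesicle transporter *Slc18a3* were all at or above 36.8 FPKM there. The cultures were not pure. *Lin28a*, an RNA-binding protein of early cells, lay between 46.9 and 53.1 FPKM in untreated and between 45.4 and 53.2 FPKM in treated libraries. The summed level of 11 pluripotency markers ran from 114 to 204 FPKM in untreated and from 87.9 to 209 FPKM in treated libraries. Summed over 15 feeder fibroblast and mesenchyme markers, the level ran from 65.7 to 106 FPKM and from 60.7 to 92.6 FPKM. Over 15 endoderm and mesoderm markers the sum ran from 118 to 188 FPKM in untreated and from 116 to 187 FPKM in treated libraries. One of these, *Foxa2*, is also on the ventral progenitor list. The 8 endothelial and blood markers summed to at most 2.97 FPKM in untreated and 2.99 FPKM in treated libraries. Among them *Ptprc* and *Hbb-bt* were at 0 in all 6 libraries, while *Pecam1* lay between 0.72 and 1.98 FPKM in untreated libraries. Among 10 glial markers *Gfap* and *Aqp4* did not exceed 0.09 FPKM. The glial list summed to between 16.8 and 18.5 FPKM in untreated and between 13.9 and 17.2 FPKM in treated libraries, with *Fabp7*, which progenitors also express, between 2.99 and 3.73 FPKM in untreated libraries. Neural crest and sensory neuron markers summed to between 79.2 and 130 FPKM in untreated and between 87.1 and 138 FPKM in treated libraries.

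The 6 libraries held from 15431424 to 18798740 counts on genes. Treated replicate 2 stood apart from the others. No count was recorded in it for 39381 of 55400 genes, while the remaining 20 libraries of the study had from 29339 to 32805 such genes, although its total of 15705324 counts was close to those of its group. Of the genes with a mean of 10 to 30 counts in the other 5 libraries, 50.4% were at 0 in treated replicate 2, against 0.196% to 1.58% in each of those 5. Above a mean of 100 counts the share was 0.186%. Among tested genes, 1615 were at 0 in this library alone. For this reason counts over gene lists are given with and without it, and named genes whose call rested on it are marked. Untreated replicate 1 differed in another way, with 0.335% of its counts on mitochondrial genes against 1.71% to 2.42% in the other 5.

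**Figure D1:**
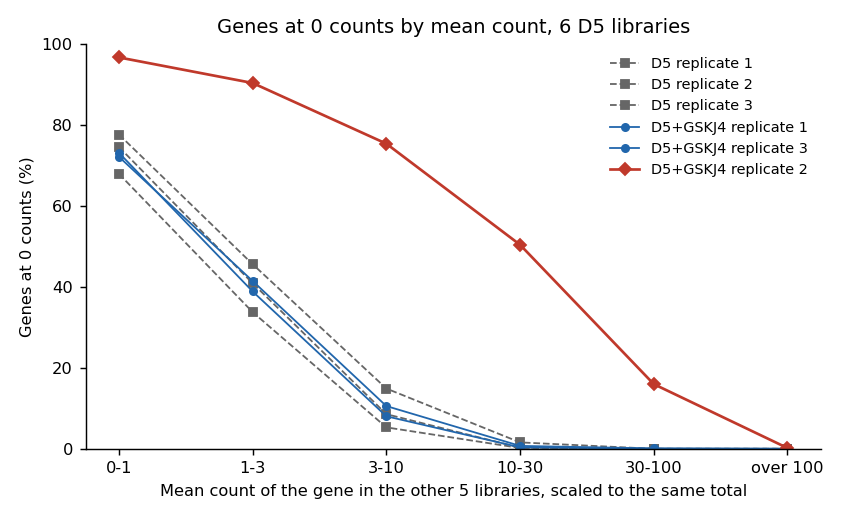
The horizontal axis bins genes by their mean count in the other 5 libraries, scaled to the same total, and the vertical axis gives the percentage of each bin at 0 counts, with 1 line per library. Treated replicate 2 lies far above the other 5 lines up to a mean of 30 to 100 counts, where 16% of its genes were at 0, and meets them above 100.

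Differences between the groups were fitted with the quasi-likelihood method of edgeR, and calls are by its unadjusted p unless called adjusted. Of 16309 tested genes, 1 passed Benjamini-Hochberg adjustment (0.00613%), *Trim66*, which rose. No gene that fell passed it, and 390 had an unadjusted p under 0.05. At this unadjusted threshold, 377 genes were raised (2.31%) and 390 lowered (2.39%). For the study's own comparison the figure legend gives a p-value under 0.05, without saying whether it was adjusted. Its methods name the Benjamini-Hochberg method for the same cut-off. In CPM (counts scaled to library size) with TMM scaling, the scale on which overlap over a list is counted below, the treated group lay wholly above the untreated group for 860 genes (5.27%) and wholly below it for 1041 genes (6.38%). Without treated replicate 2, 310 of 16918 genes were raised (1.83%) and 385 lowered (2.28%), again with *Trim66* alone past adjustment. Of the genes called with all 6 libraries, 171 of the raised and 228 of the lowered were called without treated replicate 2 as well. The counts moved by more than 1.5 times when certain other libraries were left out. They were 216 raised and 234 lowered without untreated replicate 1, 202 raised without untreated replicate 2, and 781 in each direction without treated replicate 1. The individual genes below that are called raised or lowered passed this unadjusted threshold, and apart from *Trim66* the lowest adjusted p among them was 0.0584, for *P2rx3*. Replicates are separate samples by their labels, and these p-values measure only the spread between them. The fit did not pair libraries of the same replicate number. With that number as a block, 550 genes were raised and 677 lowered.

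*Trim66* encodes a chromatin reader of the TIF1 family, at chromosome 7, 109449006 to 109508134, on the minus strand of GRCm38. It had 6, 4 and 8 counts in the untreated libraries and 254, 308 and 314 counts in the treated ones. In FPKM these were 0.04, 0.02 and 0.05 against 1.33, 1.94 and 1.93. It was thus barely detected in every untreated library and present in every treated one. The log2 fold change was 5.46 (SE 0.39), a 44.1-fold rise, with an adjusted p of 0.00149. It was 5.39 on the log2 scale without treated replicate 2.

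The factors that define motor neurons were all lower in the treated cultures. All 5 motor neuron transcription factors on the list, *Isl1*, *Isl2*, *Lhx3*, *Lhx4* and *Mnx1*, were lowered, against 2.39% of all tested genes. In each of them every treated library lay below every untreated one, against 6.38% of all tested genes. Their median log2 fold change was -0.83, beside -0.02 for all tested genes. All 5 were still lowered without treated replicate 2, where the median was -0.76, and with each of the 6 libraries left out in turn all 5 were lowered every time. Under DESeq2, run as an alternative, 4 of the 5 passed the adjusted threshold, and *Mnx1* did not, with an adjusted p of 0.425.

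*Isl1* opens motor neuron fate together with *Lhx3*, and lies at chromosome 13, 116298281 to 116309689. Its level was 73.4, 89.8 and 91.6 FPKM in the untreated libraries and 61.4, 46.5 and 52.7 FPKM in the treated ones. The highest treated library stayed below the lowest untreated library, and treated replicate 2 was the lowest of the 6. The means were 84.9 ± 10.0 FPKM (SD, n = 3) and 53.5 ± 7.5 FPKM (SD, n = 3). The log2 fold change was -0.70 (SE 0.16, adjusted p = 0.54 with edgeR), a 1.63-fold lower level, and -0.60 without treated replicate 2.

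*Isl2*, the paralogue of Isl1 that comes on as motor neurons leave the cell cycle, had the largest change of the 5. It was at 12.4, 18.9 and 25.8 FPKM in the untreated libraries and at 3.83, 4.88 and 6.33 FPKM in the treated ones. The untreated libraries were widely spread, and all 3 treated libraries lay below them. The log2 fold change was -1.97 (SE 0.28, adjusted p = 0.151 with edgeR), 3.91-fold lower, and it was -1.94 without treated replicate 2. Among lowered genes with a mean of at least 100 counts and no overlap between groups, *Isl2* had the largest fall.

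*Lhx3* forms the complex with Isl1 that binds motor neuron enhancers. It was at 28.4, 18.9 and 22.7 FPKM in untreated and 11.1, 10.1 and 12.3 FPKM in treated libraries. The treated values were close together and all under the lowest untreated one. The log2 fold change was -1.11 (SE 0.20, adjusted p = 0.276 with edgeR), and -1.03 when treated replicate 2 was left out. A predicted gene overlaps *Lhx3* on the other strand, and the counting strand was not given in the sources used here, so reads of the pair could not be told apart.

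*Lhx4*, a close relative of Lhx3 in the same cells, was at 13.6, 17.1 and 17.2 FPKM in untreated and 8.83, 8.61 and 10.4 FPKM in treated libraries. Its groups did not overlap, and the log2 fold change was -0.83 (SE 0.16, adjusted p = 0.283 with edgeR), or -0.76 without treated replicate 2. *Mnx1*, the homeodomain factor that keeps interneuron genes off in motor neurons, was at 37.6, 36.8 and 45.1 FPKM in untreated and 24.1, 21.5 and 35.1 FPKM in treated libraries. Here treated replicate 3 came near the untreated range without entering it. The log2 fold change was -0.61 (SE 0.20, adjusted p = 0.976 with edgeR), and -0.46 without treated replicate 2.

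**Figure D2:**
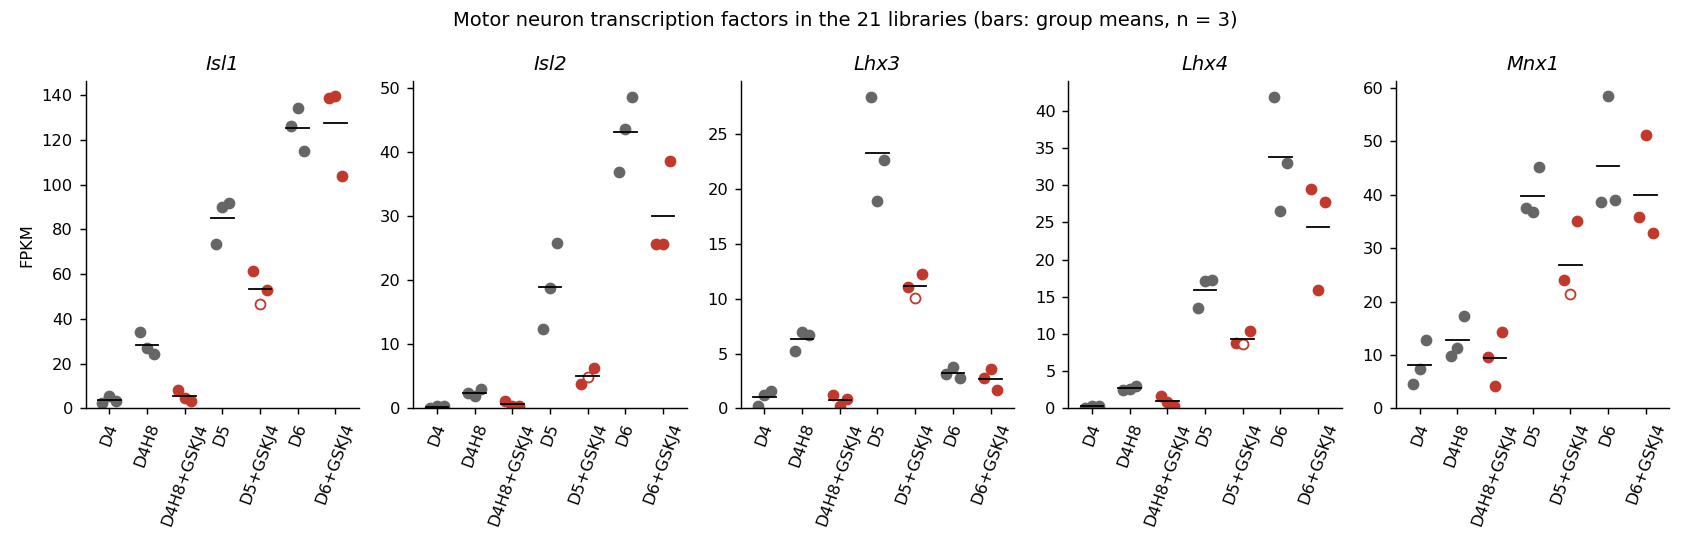
Each panel gives the FPKM of 1 factor on a linear axis from 0 in the 21 libraries by stage and treatment, grey for untreated and red for GSKJ4, with bars at the group means and an open circle for treated D5 replicate 2. At D5 the 3 treated libraries lie below the 3 untreated ones in all 5 panels.

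The study names 13 genes for D5, which include the same 5 factors and were picked from these samples, so their direction is no independent evidence. Of the 13, 10 were lowered and 0 raised, with a median log2 fold change of -0.78, and 10 were lowered without treated replicate 2. Leaving out untreated replicate 3 gave 8. *Cdh11*, a classical cadherin, had the largest fall after *Isl2* among those that were lowered. It was at 1.80, 2.46 and 2.00 FPKM in untreated and at 0.94, 0.89 and 0.90 FPKM in treated libraries. The treated values were nearly equal, and the log2 fold change was -1.24 (SE 0.23, adjusted p = 0.276 with edgeR). *Rxrg*, a retinoid X receptor, was lowered with a log2 fold change of -0.78 (SE 0.25), as was the kinase gene *Sgk1* with -0.76 (SE 0.25). The other 3 did not pass. *Ebf2*, a helix-loop-helix factor of differentiating neurons, was at 3.28, 3.52 and 4.74 FPKM in untreated and 2.67, 0.96 and 3.25 FPKM in treated libraries (adjusted p = 0.976 with edgeR). *Crmp1*, a cytoskeletal regulator of axon growth, had overlapping groups (log2 fold change -0.42, adjusted p = 0.976 with edgeR). *Uncx*, a homeobox gene, was at 0 in treated replicate 2, and its log2 fold change was -1.56 with all libraries (adjusted p = 0.976 with edgeR) and -0.98 without that library.

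Genes of the wiring and transmitter programme of motor neurons fell in part. Of 50 tested axon guidance genes, 9 were lowered and 0 raised, against 2.39% and 2.31% of all tested genes, with a median log2 fold change of -0.19, and 9 were lowered without treated replicate 2 as well (median -0.14), though *Dpysl4* was then not among them. The count of 9 became 6 without untreated replicate 2, untreated replicate 3 or treated replicate 3, and 14 without treated replicate 1. *Nrp1* and *Nrp2* encode the neuropilins, receptors for class 3 semaphorins. *Nrp2* was at 10.6, 12.8 and 13.2 FPKM in untreated and at 6.5, 7.24 and 9.61 FPKM in treated libraries, and the groups did not overlap. Its log2 fold change was -0.70 (SE 0.17, adjusted p = 0.629 with edgeR). *Nrp1* was at 11.7, 10.3 and 12.8 FPKM and at 7.14, 4.74 and 9.11 FPKM, again without overlap, with a log2 fold change of -0.77 (SE 0.23, adjusted p = 0.906 with edgeR). *Ret*, the receptor tyrosine kinase for GDNF, was at 29.5, 24.8 and 27.3 FPKM and at 21.2, 14.4 and 17.3 FPKM, a log2 fold change of -0.66 (SE 0.18, adjusted p = 0.798 with edgeR). Also lowered were the semaphorins *Sema3c*, *Sema3d* and *Sema6d*, the Slit receptor family gene *Robo3*, the netrin receptor *Unc5c* and *Dpysl4*, with log2 fold changes from -1.15 to -0.36.

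Of 13 tested transmitter identity genes, 3 were lowered, against 2.39% of all tested genes, and 0 raised, and the median was -0.52 (-0.35 without treated replicate 2, where 2 were lowered). *Sst*, which encodes the peptide somatostatin, was at 104, 87.9 and 75 FPKM in untreated and at 33.5, 51.6 and 32.0 FPKM in treated libraries. All treated values lay below the untreated ones, with treated replicate 2 the highest of them, and the log2 fold change was -1.24 (SE 0.23, adjusted p = 0.276 with edgeR). *Slc10a4*, a vesicular transporter of cholinergic neurons, had a log2 fold change of -0.65 (SE 0.17, adjusted p = 0.721 with edgeR). *Slc18a3*, which loads acetylcholine into vesicles, had 1 of -0.39 (SE 0.14, adjusted p = 0.976 with edgeR), and it was not called without treated replicate 2. *Chat*, the enzyme that makes acetylcholine, ran from 11.1 to 13.6 FPKM in untreated and from 10.2 to 11.6 FPKM in treated libraries and did not pass (log2 fold change -0.26).

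General neuronal genes gave a less uniform picture. Of 31 tested cytoskeleton and synapse genes, 5 were lowered and 0 raised, against 2.39% and 2.31% of all tested genes (median -0.22). Without treated replicate 2, 4 were lowered, with a median of -0.15. The count was 16 without treated replicate 1 and 3 without untreated replicate 1. The 5 were *Cdh11* and 4 intermediate filament genes of the axon. *Nefl*, the light neurofilament chain, was at 414, 359 and 344 FPKM in untreated and at 305, 216 and 194 FPKM in treated libraries. Its groups did not overlap, and the log2 fold change was -0.68 (SE 0.20, adjusted p = 0.906 with edgeR). *Ina* (internexin), *Nefm* and *Nefh* had log2 fold changes of -0.56, -0.59 and -1.03. *Nefm*, which overlaps *Nefl* on the other strand, had overlapping groups and was not called without treated replicate 2. *Nefl* was the only 1 of 8 general neuron markers that passed. For *Tubb3* the log2 fold change was -0.34 (adjusted p = 0.976 with edgeR), for the microtubule protein *Map2* -0.11 (adjusted p = 0.976 with edgeR), and for the RNA-binding protein *Elavl3* 0.00. Summed over the 8 markers the level was 1862, 1670 and 1807 FPKM in untreated and 1762, 1268 and 1266 FPKM in treated libraries, so that treated replicate 1 lay within the untreated range. Without treated replicate 1, 6 of the 8 markers were lowered.

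Of the genes upstream of the motor neuron factors, the proneural list held few calls, while ventral progenitor factors fell in part. Of 22 tested proneural and differentiation factors, 1 was raised and 1 lowered, against 2.31% and 2.39% of all tested genes. The median was 0.00 (1 and 1 with a median of 0.11 without treated replicate 2). *Neurog2*, the proneural factor of motor neuron progenitors, was at 16.5, 30.8 and 29.1 FPKM in untreated and at 13.1, 18.5 and 20.3 FPKM in treated libraries. The groups overlapped at untreated replicate 1, and the log2 fold change was -0.60 (SE 0.24, adjusted p = 0.976 with edgeR). *Nhlh1*, a helix-loop-helix factor of newborn neurons, moved the other way, from 13.3, 18.4 and 23.5 FPKM to 29.5, 33.2 and 36.9 FPKM, a log2 fold change of 0.81 (SE 0.20, adjusted p = 0.645 with edgeR). The treated libraries all lay above the untreated ones. Of 17 tested ventral progenitor factors, 3 were lowered (*Olig1*, *Irx3* and *Nkx2-9*), against 2.39% of all tested genes, with a median of -0.48. Without treated replicate 2 the median was -0.45 and 4 were lowered, as *Nkx2-9* lost its call and *Irx5* and *Dbx1* gained one, and 5 were lowered without treated replicate 3. *Olig1*, a partner of *Olig2* in progenitors, was at 6.95, 4.5 and 7.36 FPKM in untreated and at 2.04, 0.38 and 3.60 FPKM in treated libraries. Treated replicate 2 was far below the rest, and the log2 fold change was -1.68 with it (SE 0.61, adjusted p = 0.976 with edgeR) and -1.19 without it. *Olig2* itself had overlapping groups, at 15.2, 24.2 and 27.8 FPKM and at 11.4, 14.2 and 20.8 FPKM (log2 fold change -0.58, adjusted p = 0.976 with edgeR).

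Of 20 tested Notch pathway genes, 3 were lowered, against 2.39% of all tested genes, and 0 raised (median -0.21, and 3 with a median of -0.15 without treated replicate 2, where *Jag1* took the place of *Hes6*), and leaving out untreated replicate 3 gave 1. Notch ligands on newborn neurons hold neighbouring cells as progenitors, and DAPT, present in both groups, blocks the step by which the receptor is cut. *Dll1*, the main such ligand, was at 15.8, 12.1 and 13.4 FPKM in untreated and at 8.41, 4.94 and 8.58 FPKM in treated libraries. The groups were well apart, and the log2 fold change was -0.96 (SE 0.24, adjusted p = 0.695 with edgeR). *Dll4* fell by 0.85 on the log2 scale (adjusted p = 0.976 with edgeR), while the receptor *Notch1* (-0.05) and the target *Hes1* (-0.17) did not pass.

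Among 21 tested Irx and spinal interneuron factors, 3 were lowered and 1 raised, against 2.39% and 2.31% of all tested genes. Without treated replicate 2 there were 5 lowered and 1 raised. *Irx1*, an Iroquois homeobox gene, was at 9.65, 13.2 and 12.9 FPKM in untreated and at 3.31, 6.08 and 3.52 FPKM in treated libraries. The treated libraries lay below the untreated ones, treated replicate 2 highest among them, and the log2 fold change was -1.52 (SE 0.27, adjusted p = 0.276 with edgeR) with and -1.83 without it. *Irx2* had a log2 fold change of -1.03 (adjusted p = 0.976 with edgeR), and *Prdm8*, a chromatin factor of interneuron progenitors, had 1 of -0.70 (adjusted p = 0.974 with edgeR). *Lhx1*, a LIM-homeodomain factor, was raised with a log2 fold change of 0.56 (adjusted p = 0.976 with edgeR).

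The retinoic acid and motor column genes held further calls. *Aldh1a2*, the enzyme that makes retinoic acid in motor neurons, was at 2.26, 3.63 and 2.16 FPKM in untreated and at 0.75, 0.37 and 0.99 FPKM in treated libraries. No treated library reached the untreated range, and the log2 fold change was -1.97 (SE 0.52, adjusted p = 0.721 with edgeR). *Crabp1*, a retinoic acid binding protein, was at 1402, 1064 and 970 FPKM and at 893, 733 and 727 FPKM (log2 fold change -0.59, adjusted p = 0.976 with edgeR). Over the 17 tested retinoic acid response genes, 2 were raised and 3 lowered, against 2.31% and 2.39% of all tested genes. Leaving out treated replicate 2 gave 1 raised and 3 lowered. *Foxp1*, a forkhead factor of the lateral and preganglionic motor columns, was raised with a log2 fold change of 0.52 (adjusted p = 0.976 with edgeR). *Pou3f1* (SCIP) was lowered with -0.60 (adjusted p = 0.976 with edgeR). With *Aldh1a2* they made up the 3 calls among the 21 tested column and pool genes, as also without treated replicate 2. These were 1 raised and 2 lowered, against 2.31% and 2.39% of all tested genes. None of 11 tested Sonic hedgehog response genes passed in edgeR with all 6 libraries or without treated replicate 2, and 2 were raised without treated replicate 1.

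**Figure D3:**
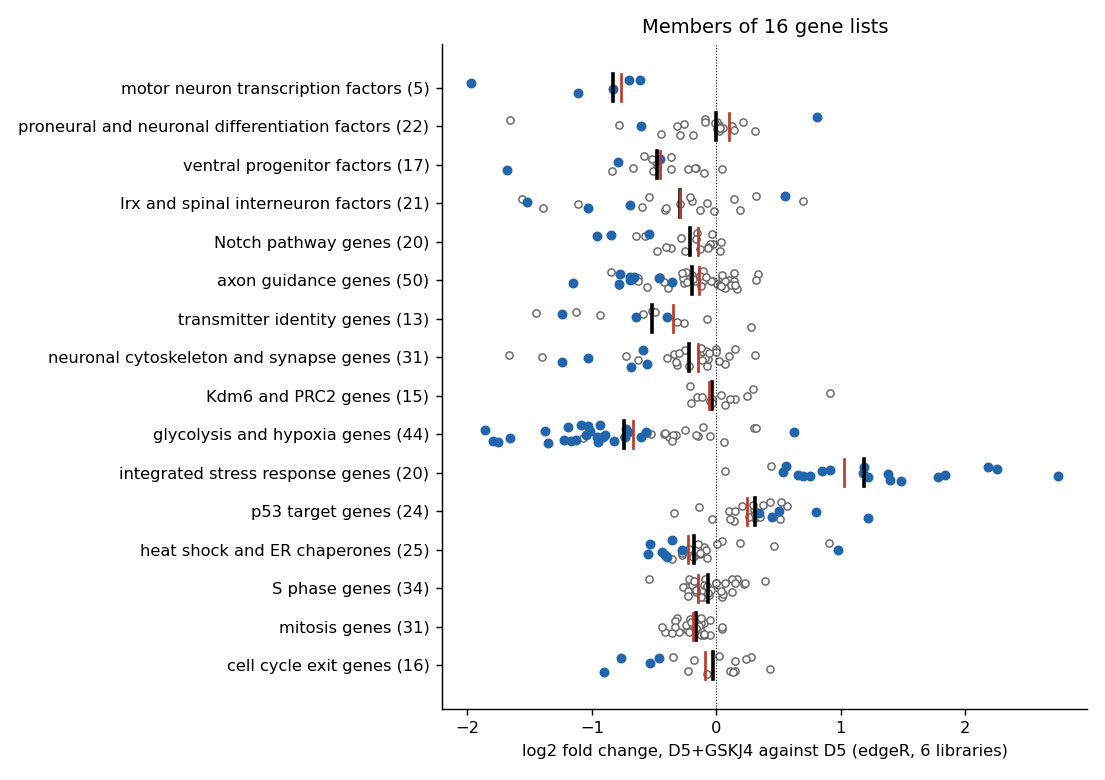
The horizontal axis gives the log2 fold change of each tested member of 16 gene lists, whose names and numbers of tested members stand on the vertical axis. Filled points had an unadjusted p under 0.05 in edgeR, black bars are the list medians and red bars the medians without treated replicate 2. The glycolysis and hypoxia list (25 of 44 lowered) and the integrated stress response list (18 of 20 raised) stand out by their counts.

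Outside the neuronal lists, the genes of glycolysis and of the hypoxia response were lower together. Cells break glucose down to pyruvate by glycolysis, and the hypoxia-inducible factors switch on most of its enzymes along with genes that adapt cells to low oxygen. Their stability is set by the prolyl hydroxylases Egln1 and Egln3, which are themselves targets. Of 44 tested members, 25 were lowered and 1 raised, against 2.39% and 2.31% of all tested genes. The median log2 fold change was -0.74. In 25 of the 44 the treated group lay wholly below the untreated group, against 6.38% of all tested genes. Without treated replicate 2, 26 were lowered and 1 raised, with a median of -0.67, and with each library left out in turn between 22 and 29 were lowered. Under DESeq2, 17 of the lowered members passed the adjusted threshold.

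Untreated replicate 1 was the highest of the 6 libraries in the summed level of this list, at 4160 FPKM, against 2978 and 2974 in the other untreated libraries and 1957, 1442 and 1913 in the treated ones. Treated replicate 2 was the lowest. Without untreated replicate 1, 22 members were lowered. The largest change from leaving out 1 library was upward, to 29 lowered without treated replicate 1.

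Lowered glycolytic enzymes are taken here in the order of the pathway. The glucose transporters *Slc2a1* and *Slc2a3* were lowered, with log2 fold changes of -1.03 (SE 0.22) and -0.82 (SE 0.17). *Hk2*, a hexokinase that traps glucose in the cell, ran from 15.3 to 21.2 FPKM in untreated and from 8.54 to 11.4 FPKM in treated libraries (log2 fold change -0.90, SE 0.18). *Pfkl*, the liver-type phosphofructokinase, was at 51.4, 34.1 and 34.3 FPKM in untreated and at 17.3, 11 and 19.6 FPKM in treated libraries. Every treated library was well below the untreated range, and the log2 fold change was -1.37 (SE 0.25, adjusted p = 0.276 with edgeR), or -1.15 without treated replicate 2. *Aldoa*, an aldolase, was at 446, 348 and 363 FPKM and at 211, 136 and 199 FPKM. Its groups were far apart, and the log2 fold change was -1.13 (SE 0.20, adjusted p = 0.276 with edgeR). The next enzymes were lowered too, *Tpi1* by 1.09, *Pgk1* by 1.17, *Pgam1* by 0.73 and *Eno1* by 0.91 on the log2 scale. *Pgam1* had the tightest untreated values of these, at 164, 157 and 159 FPKM, and lay at 98.0, 88.6 and 111 FPKM in the treated libraries. *Pkm*, pyruvate kinase, ran from 476 to 722 FPKM and from 245 to 323 FPKM (log2 fold change -1.02, SE 0.20). Not every enzyme of the pathway on the list was lowered. *Gapdh*, which acts between *Tpi1* and *Pgk1*, had overlapping groups and was not called. Neither were *Hk1*, *Pfkm*, *Pfkp* and *Aldoc*. *Aldoa*, *Eno1*, *Ldha* and *Pgk1* have near-identical copies in the genome, to which the counting may have lost or split reads.

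The fates of pyruvate were represented by 3 genes. *Ldha*, which turns pyruvate into lactate, was at 382, 250 and 235 FPKM in untreated and at 131, 51.8 and 100 FPKM in treated libraries. The groups did not overlap, and treated replicate 2 was the lowest. The log2 fold change was -1.66 (SE 0.34, adjusted p = 0.353 with edgeR), and -1.35 without treated replicate 2. *Slc16a3*, the transporter that carries lactate out, was at 31.6, 26.4 and 29.4 FPKM and at 12.2, 2.54 and 11.1 FPKM. Treated replicate 2 was again far below the rest, and the log2 fold change was -1.79 with it (SE 0.46, adjusted p = 0.695 with edgeR) and -1.35 without it. *Pdk1*, a kinase that keeps pyruvate out of the mitochondrial cycle, was at 19.1, 11 and 10.3 FPKM and at 7.12, 3.68 and 5.48 FPKM (log2 fold change -1.35, SE 0.31, adjusted p = 0.54 with edgeR).

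Hypoxia targets that are no glycolytic enzymes were lowered in part. *Ankrd37* was at 10.8, 7.45 and 4.00 FPKM in untreated and at 2.52, 2.65 and 1.17 FPKM in treated libraries (log2 fold change -1.86, SE 0.47, adjusted p = 0.695 with edgeR), and overlaps *Ufsp2* on the other strand. *Bnip3*, a mitophagy receptor, was at 143, 74.8 and 55.0 FPKM and at 48.6, 12.2 and 22.1 FPKM, a log2 fold change of -1.75 (SE 0.51, adjusted p = 0.9 with edgeR). In both genes the untreated libraries were widely spread, with replicate 1 the highest, and the treated libraries lay below them. *Kdm3a*, a hypoxia-induced demethylase of another histone H3 lysine, had a log2 fold change of -0.73 (SE 0.21, adjusted p = 0.906 with edgeR). The prolyl hydroxylases *Egln3* (-0.96) and *Egln1* (-0.56) were lowered as well. *Hif1a* itself, the oxygen-regulated subunit, did not pass, with all treated libraries above the untreated ones (log2 fold change 0.32), and neither did its partner *Arnt* (0.06) or the target *Vegfa* (0.30). The raised member was *Eno2*, the neuronal enolase, from 3.44 to 4.60 FPKM in untreated and from 5.82 to 6.44 FPKM in treated libraries (0.62). *Epas1* and *Car9* were at 0 in treated replicate 2 alone.

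The integrated stress response genes were raised almost throughout. In this pathway shortage of amino acids or misfolded protein leads to translation of the factor Atf4, which turns on amino acid synthesis, amino acid transporters and, with Ddit3, stress genes. Of 20 tested members, 18 were raised and 0 lowered, against 2.31% and 2.39% of all tested genes, with a median log2 fold change of 1.18. The treated group lay wholly above the untreated group in 16 of the 20, against 5.27% of all tested genes. Without treated replicate 2, 16 were raised with a median of 1.03, and with each library left out in turn between 16 and 18 were raised. Under DESeq2, 9 passed the adjusted threshold. The 2 that did not pass in edgeR were *Ppp1r15a* (0.44) and *Vldlr* (0.07). Summed over the list, the untreated libraries were at 420, 436 and 679 FPKM and the treated ones at 812, 1134 and 1044 FPKM, so untreated replicate 3 was the highest of its group and treated replicate 2 the highest of all.

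Of the regulators, *Atf4* ran from 55.5 to 93.2 FPKM in untreated and from 96.2 to 115 FPKM in treated libraries (log2 fold change 0.56, SE 0.18). *Atf5*, a related factor, was at 19.0, 24.3 and 35.7 FPKM and at 69.1, 113 and 109 FPKM. The lowest treated library was well above the highest untreated one, and the log2 fold change was 1.84 (SE 0.25, adjusted p = 0.141 with edgeR). *Ddit3* (Chop) was at 9.46, 9.33 and 12.6 FPKM and at 24.0, 33.9 and 27.2 FPKM, a log2 fold change of 1.40 (SE 0.20, adjusted p = 0.151 with edgeR). *Atf5* overlaps *Nup62* and *Ddit3* overlaps *Mars* on the other strand. *Trib3*, a pseudokinase induced by Ddit3, was at 3.08, 2.83 and 6.60 FPKM and at 10.7, 28.6 and 19.5 FPKM. The treated libraries spread widely, all above the untreated range, and the log2 fold change was 2.18 (SE 0.40, adjusted p = 0.276 with edgeR) with and 1.82 without treated replicate 2. *Chac1*, which degrades glutathione, was at 4.2, 4.29 and 19.4 FPKM and at 22.6, 34.8 and 41.1 FPKM, and untreated replicate 3 came close to the treated range (1.78, SE 0.53, adjusted p = 0.906 with edgeR).

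The transport and synthesis arm followed. *Slc7a11*, which imports cystine, was at 0.05, 0.10 and 0.26 FPKM in untreated and at 0.79, 1.13 and 0.91 FPKM in treated libraries, from 11 to 57 counts and from 203 to 246 counts. The groups did not overlap, and the log2 fold change of 2.75 (SE 0.52, adjusted p = 0.283 with edgeR) was the largest of the list. *Slc7a5* and *Slc3a2*, the pair that form an importer of large amino acids, had log2 fold changes of 1.38 (SE 0.29) and 0.69 (SE 0.21). *Asns*, which makes asparagine, ran from 65.8 to 106 FPKM and from 135 to 172 FPKM (0.85, SE 0.19). The serine pathway enzymes *Phgdh* (0.66), *Psat1* (0.53) and *Shmt2* (0.75) and the mitochondrial folate enzymes *Mthfd2* (0.91) and *Aldh1l2* (1.19) were raised. *Phgdh* and the factor *Cebpb* (1.18) were not called without treated replicate 2. *Sesn2*, a nutrient sensor that p53 and Atf4 both induce, was at 11.7, 16.9 and 27.9 FPKM and at 30.4, 53.7 and 51.0 FPKM (1.22, SE 0.30, adjusted p = 0.636 with edgeR).

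Outside the list, *Cth* and *Slc7a3* were among the 12 largest rises. *Cth*, which makes cysteine from cystathionine, was at 0.67, 2.15 and 2.39 FPKM and at 7.15, 10.5 and 8.72 FPKM, 4.90-fold higher (log2 fold change 2.29, SE 0.40, adjusted p = 0.276 with edgeR). *Slc7a3*, an importer of cationic amino acids, was at 4.18, 4.49 and 9.81 FPKM and at 17.8, 37.5 and 23.8 FPKM (2.05, SE 0.35, adjusted p = 0.276 with edgeR). Neither gene's groups overlapped. *Herpud1*, induced by misfolded protein in the endoplasmic reticulum, was raised with a log2 fold change of 0.98 (adjusted p = 0.901 with edgeR), whereas the main chaperone there, *Hspa5*, fell from 235, 201 and 199 FPKM to 144, 160 and 149 FPKM (-0.54, SE 0.14, adjusted p = 0.721 with edgeR). Of 25 tested heat shock and endoplasmic reticulum chaperones, 1 was raised and 7 lowered, against 2.31% and 2.39% of all tested genes. The counts were 1 and 5 without treated replicate 2. Without untreated replicate 2, 3 were lowered.

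**Figure D4:**
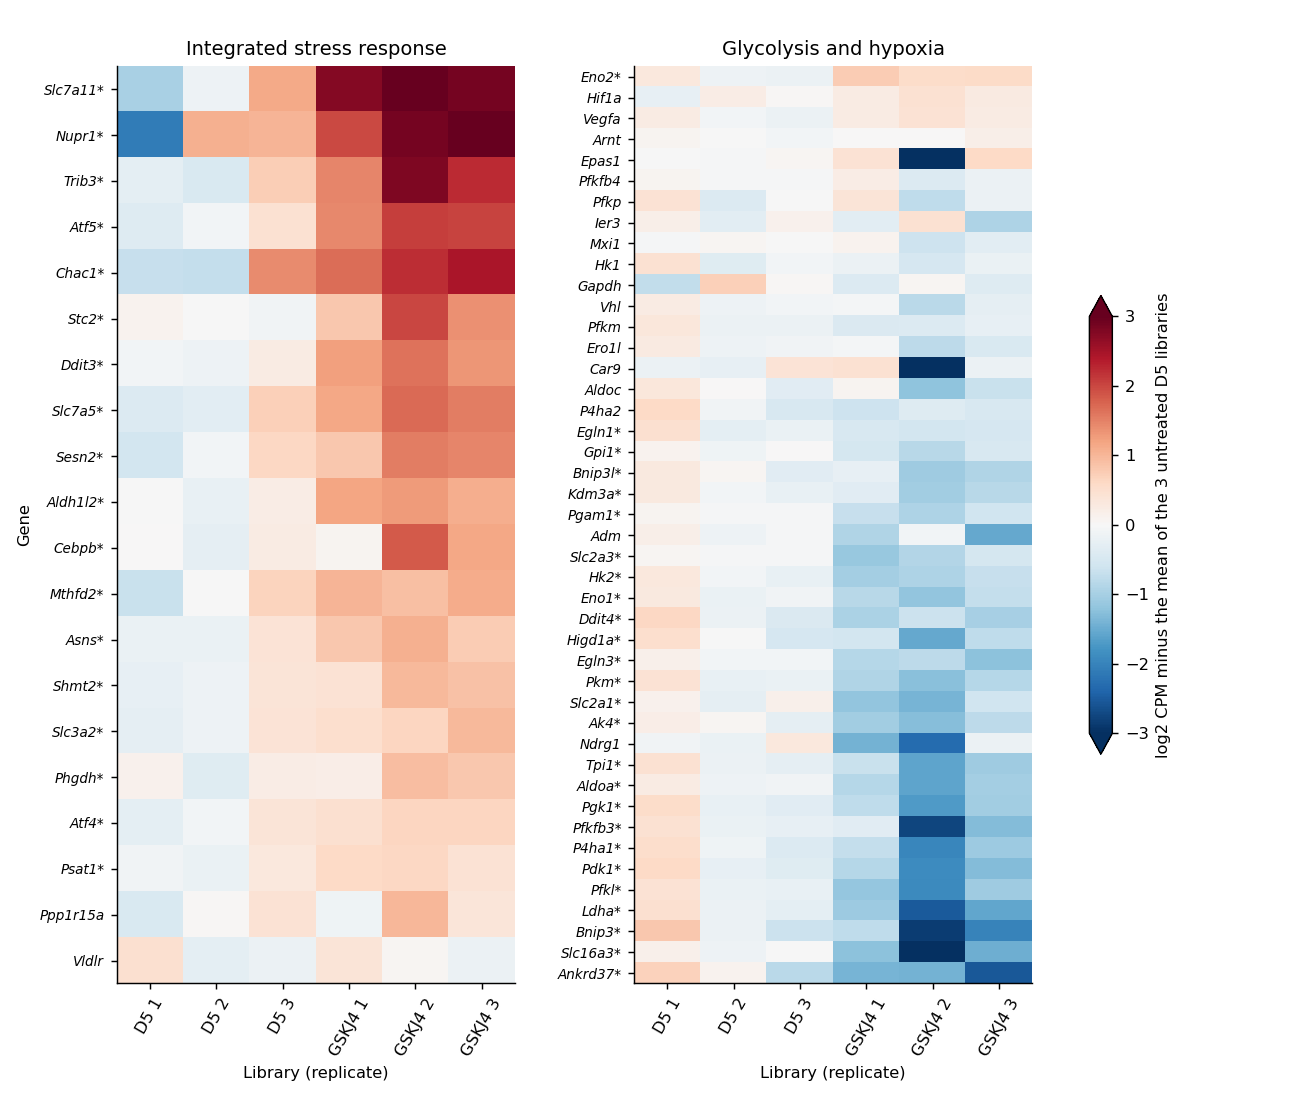
Colour gives log2 CPM of each gene minus its mean in the 3 untreated D5 libraries, from blue (lower) to red (higher), capped at 3 in both directions, in the 6 libraries, for the 20 tested integrated stress response genes and the 44 tested glycolysis and hypoxia genes in order of fold change. Asterisks mark genes with an unadjusted p under 0.05 in edgeR. Untreated replicate 3 is redder than its group on the left, untreated replicate 1 is redder on the right, and treated replicate 2 had the highest summed level of the left list (1134 FPKM) and the lowest of the right list (1442 FPKM).

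Promoters of members of both lists are shown because the factors named above have known short binding motifs, and the members moved together. The sequences are RefSeq promoters on GRCm38.p6, from 250 bases before to 50 after the start of transcription, on the strand of the gene. The hypoxia response core was searched as ACGTG or GCGTG on both strands, where the reverse of ACGTG overlaps it in CACGTG and both are then counted. The core is short, and 43.8% of the 32851 promoters in the table hold it. It was in 47 of 60 promoters of tested members of the glycolysis and hypoxia list (78.3%), and in 29 of 36 promoters of lowered members (80.6%). Lowered members thus held it about as often as all tested members. A gene can have several promoters here, and 39 of the 44 members matched the table. In the following 3 the capitals mark each match, in either direction.
Pfkl (chr10:78009758-78010057, minus strand): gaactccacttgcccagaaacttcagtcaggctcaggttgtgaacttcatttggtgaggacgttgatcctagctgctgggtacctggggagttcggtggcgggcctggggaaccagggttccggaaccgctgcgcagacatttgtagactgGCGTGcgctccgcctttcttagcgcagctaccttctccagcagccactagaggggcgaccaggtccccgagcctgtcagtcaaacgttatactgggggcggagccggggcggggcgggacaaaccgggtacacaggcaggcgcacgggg
Pgam1 (chr19:41911621-41911920, plus strand): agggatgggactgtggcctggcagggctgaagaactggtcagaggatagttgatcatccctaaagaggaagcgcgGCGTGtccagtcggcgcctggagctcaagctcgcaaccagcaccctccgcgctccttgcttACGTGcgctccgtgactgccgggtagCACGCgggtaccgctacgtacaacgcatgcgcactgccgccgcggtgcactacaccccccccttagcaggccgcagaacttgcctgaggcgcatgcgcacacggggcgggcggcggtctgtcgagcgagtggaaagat
Hk2 (chr6:82774405-82774704, minus strand): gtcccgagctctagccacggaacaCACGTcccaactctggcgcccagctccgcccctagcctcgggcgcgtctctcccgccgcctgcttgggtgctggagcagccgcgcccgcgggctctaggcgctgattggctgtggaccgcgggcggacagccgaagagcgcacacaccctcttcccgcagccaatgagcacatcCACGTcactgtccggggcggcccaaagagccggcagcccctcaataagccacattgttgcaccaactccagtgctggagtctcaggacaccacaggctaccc
The match in the *Pfkl* promoter starts 99 bases before the start of transcription, those of *Pgam1* 175, 114 and 88 bases before it, and those of *Hk2* 226 and 52 bases before it.

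The element that Atf4 binds with C/EBP factors was searched as TGATGNAA on both strands. It was in 3.97% of all promoters, in 6 of 21 promoters of tested integrated stress response genes (28.6%) and in 5 of 18 promoters of raised members (27.8%). The promoters of 3 raised members that hold it are printed, again with matches in capitals.
Trib3 (chr2:152344011-152344310, minus strand): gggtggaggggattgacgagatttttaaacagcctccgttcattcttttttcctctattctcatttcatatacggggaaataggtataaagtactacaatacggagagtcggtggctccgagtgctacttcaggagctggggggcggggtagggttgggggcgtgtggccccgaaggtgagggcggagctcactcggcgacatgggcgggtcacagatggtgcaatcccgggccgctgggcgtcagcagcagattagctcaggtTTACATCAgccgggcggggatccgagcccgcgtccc
Slc7a11 (chr3:50443564-50443863, minus strand): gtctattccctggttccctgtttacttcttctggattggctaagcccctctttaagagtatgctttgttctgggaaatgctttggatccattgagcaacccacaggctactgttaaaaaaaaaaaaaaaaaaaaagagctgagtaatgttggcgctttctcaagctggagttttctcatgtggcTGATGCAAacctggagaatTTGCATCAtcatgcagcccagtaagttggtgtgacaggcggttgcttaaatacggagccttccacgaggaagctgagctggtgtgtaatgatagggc
Asns (chr6:7693160-7693459, minus strand): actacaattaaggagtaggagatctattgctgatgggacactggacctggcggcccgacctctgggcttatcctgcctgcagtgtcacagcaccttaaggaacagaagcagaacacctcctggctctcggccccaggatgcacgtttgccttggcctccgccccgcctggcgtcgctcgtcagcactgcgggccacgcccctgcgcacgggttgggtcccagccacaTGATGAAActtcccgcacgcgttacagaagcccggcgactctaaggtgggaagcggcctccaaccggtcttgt
*Slc7a11* holds 2 matches in opposite directions, 66 and 47 bases before the start, *Asns* holds 1 at 23 bases before it, and *Trib3* holds 1 that begins 14 bases after it. As 18 of the 20 tested members were raised, the shares of raised and of all tested members rest on nearly the same promoters. They therefore do not compare raised members with others. Of the tested members, 18 matched the promoter table. Both lists hold genes chosen by their known pathways, and the share over all promoters was not matched for expression or base content. A list share above it is therefore no test of a link between motif and treatment. A match describes the letters in the window and is not a measured binding site.

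Other stress programmes moved less. Of 24 tested p53 target genes, 5 were raised, against 2.31% of all tested genes, and 0 lowered (*Sesn2*, *Tnfrsf10b*, *Eda2r*, *Gadd45a* and *Plk3*), with a median of 0.31, and 3 were raised without treated replicate 2 (median 0.24, with *Gadd45a* and *Plk3* not called) or without untreated replicate 2, and 9 without treated replicate 1. *Tnfrsf10b*, a death receptor, was at 2.67, 3.93 and 3.48 FPKM and at 4.19, 8.22 and 5.85 FPKM (0.80, SE 0.26, adjusted p = 0.976 with edgeR). Among 17 tested metal handling genes 3 were raised and 0 lowered, against 2.31% and 2.39% of all tested genes. There were 6 raised without treated replicate 1 and 2 without treated replicate 3, and 3 raised and 1 lowered without treated replicate 2. The zinc exporter *Slc30a1* was at 4.40, 4.38 and 3.41 FPKM and at 7.06, 8.38 and 7.45 FPKM, with no overlap (0.86, SE 0.19, adjusted p = 0.476 with edgeR). *Mt1*, a metallothionein that binds zinc and copper, was at 31.1, 77.8 and 55.2 FPKM and at 92.0, 276 and 176 FPKM (1.67, SE 0.39, adjusted p = 0.546 with edgeR). *Mt2* overlapped between groups and was called with but not without treated replicate 2, and both metallothioneins have near-identical copies. Of 21 tested NRF2 oxidative stress genes, 1 was raised, *Slc7a11*, and 2 were lowered, against 2.31% and 2.39% of all tested genes. Leaving out treated replicate 2 gave 1 raised and 1 lowered, and none was lowered without untreated replicate 1, untreated replicate 2 or treated replicate 3.

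Cell cycle lists held few calls, among them the D cyclins. Neither the 34 tested S phase genes (median -0.07) nor the 31 mitosis genes (median -0.16) held a call in edgeR with all 6 libraries, and 6 mitosis genes were lowered without untreated replicate 1 and 1 without treated replicate 2. Of 16 tested genes on the cell cycle exit list, which also holds D cyclins, 4 were lowered, against 2.39% of all tested genes. They were *Gadd45g* and the 3 described next, of which 2 are D cyclins. Without treated replicate 2, 3 were lowered and *Gadd45g* was not among them. *Ccnd2*, a D cyclin of progenitors, was at 20.8, 33.6 and 29.0 FPKM and at 15.7, 14.7 and 20.2 FPKM, with no overlap (-0.76, SE 0.20, adjusted p = 0.695 with edgeR). *Ccnd1* was at 24.7, 18.2 and 22.1 FPKM and at 14.0, 6.46 and 15.4 FPKM (-0.90, SE 0.30, adjusted p = 0.976 with edgeR). *Cdkn1c*, the inhibitor that stops the cycle in newborn neurons, fell from 200, 149 and 170 FPKM to 128, 130 and 131 FPKM (-0.46, SE 0.15, adjusted p = 0.976 with edgeR). *Dusp4*, a phosphatase that damps ERK signals, was at 69.5, 51.0 and 56.0 FPKM and at 24.8, 35.7 and 29.4 FPKM (-1.03, SE 0.18, adjusted p = 0.276 with edgeR).

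The RNA of the targeted enzymes did not pass the test. GSKJ4 blocks activity, so their RNA does not check the treatment. *Kdm6b* was at 31.5, 30.3 and 36.9 FPKM in untreated and at 42.8, 36.0 and 42.0 FPKM in treated libraries, with overlap at treated replicate 2 (log2 fold change 0.25, adjusted p = 0.976 with edgeR). Its antisense gene *Kdm6bos* shares the locus. *Kdm6a* was at 7.19, 8.58 and 7.85 FPKM and at 8.37, 7.28 and 7.77 FPKM (-0.05, adjusted p = 0.982 with edgeR). The relative *Uty* (0.29, adjusted p = 0.976 with edgeR) and *Ezh2*, the methyltransferase that writes the same mark (-0.21, adjusted p = 0.976 with edgeR), did not pass either, nor did any other of the 15 Kdm6 and PRC2 genes tested with edgeR, although 1 was raised without treated replicate 1 and 1 without treated replicate 3. Of 20 tested other JmjC demethylases, 0 were raised and 3 lowered, *Kdm3a*, *Kdm4b* and *Jmjd6*, against 2.39% of all tested genes. Leaving out treated replicate 2 gave 2, as *Kdm4b* was not called, and 1 was lowered without untreated replicate 1.

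Several of the largest changes lay outside the lists. *P2rx3*, an ATP-gated cation channel known from sensory neurons, was at 6.92, 7.34 and 12 FPKM in untreated and at 32.7, 46.1 and 33.1 FPKM in treated libraries. The groups were far apart, and the log2 fold change was 2.05 (SE 0.24, adjusted p = 0.0584 with edgeR), 1.89 without treated replicate 2. It overlaps *Ssrp1* on the other strand. *Mef2b*, a MADS-box factor, was at 1.52, 1.80 and 4.16 FPKM and at 5.15, 9.57 and 7.90 FPKM (1.55, SE 0.44, adjusted p = 0.853 with edgeR). The mitochondrial transcripts *mt-Rnr1* and *mt-Nd2* were among the 12 largest rises. *mt-Rnr1*, the small mitochondrial ribosomal RNA, was at 80.6, 147 and 87.5 FPKM and at 283, 550 and 264 FPKM (1.75, SE 0.31, adjusted p = 0.276 with edgeR). *mt-Nd2*, a complex I subunit, was at 110 FPKM in untreated replicate 1, the library with few mitochondrial counts, and at 1629 and 1119 FPKM in the other untreated ones. The treated libraries held 3368, 2745 and 2342 FPKM, and it was called with but not without treated replicate 2. *Igfbp2*, a secreted binder of insulin-like growth factors, fell from 458, 183 and 215 FPKM to 126, 91.4 and 135 FPKM (-1.33, SE 0.34, adjusted p = 0.695 with edgeR), and the log2 fold change was -0.78 without untreated replicate 1, its highest library. *Pcdh8*, a protocadherin, was at 1.79, 2.09 and 2.1 FPKM and at 0.83, 0.52 and 1.03 FPKM (-1.37, SE 0.36, adjusted p = 0.721 with edgeR).

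Genes that change as the cultures mature were then followed at D5. From D4 to D6 in untreated cultures, libraries that the D5 comparison did not use, 2086 genes rose and 899 fell by at least 2 on the log2 scale with an adjusted p under 0.05 in edgeR. Of the rising genes tested at D5, 121 of 1841 were lowered (6.57%) and 17 raised (0.923%), against 2.39% and 2.31% of all tested genes. Their median log2 fold change was -0.17. Without treated replicate 2, in which 310 of them were at 0, 136 were lowered and 24 raised, and the median was -0.08. Of the falling genes, 15 of 813 were lowered (1.85%) and 34 raised (4.18%), with a median of 0.03, and leaving out treated replicate 2 gave 17 lowered and 25 raised. Tested genes on neither list had 1.86% lowered and 2.39% raised.

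The study assigned Kdm6b target genes at D5 from its own binding maps, which were not analysed here, and 7478 tested genes were on that list. Of these, 263 were lowered (3.52%) and 170 raised (2.27%). Of the 8831 tested genes outside the list, 127 were lowered (1.44%) and 207 raised (2.34%). Target genes made up 67.4% of the lowered, 45.1% of the raised and 45.9% of all tested genes. The shares lowered without treated replicate 2 were 2.71% and 1.86%. The lists differed in how far that library touched them, as 273 target genes and 1362 other genes were at 0 in it, and the part this played in the shares was not tested. The median log2 fold change was -0.03 for target genes and 0.00 for the others. All 5 motor neuron factors and 32 of the 44 glycolysis and hypoxia genes were on the target list, and *Trim66*, *P2rx3*, *Cth* and *Ldha* were not. Of 821 tested genes nearest to peaks that Kdm6b shared with Isl1 and Lhx3, 48 were lowered (5.85%) and 23 raised (2.8%), and leaving out treated replicate 2 gave 41 and 20. Of 731 nearest to peaks shared with Neurod1, 39 were lowered (5.34%) and 25 raised (3.42%), and leaving it out gave 29 and 20. These shares stand beside 3.52% and 2.27% of all target genes.

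The effect at D5 was set beside those of the same treatment length at D4H8 (8 hours after D4, treated from D3H8) and at D6 (treated from D5). These comparisons share no libraries with it. By edgeR, 343 genes were raised and 301 lowered past adjustment at D4H8, and none in either direction at D6, where 88 were raised and 134 lowered at the unadjusted threshold. The difference in effect itself was tested in a fit over 18 libraries. The effect at D5 differed from that at D4H8 in 45 of 18103 genes by adjusted p (0.249%), 42 of them with a higher log2 fold change at D5. Against D6, no gene passed adjustment in edgeR (0.0%), 358 had an unadjusted p under 0.05, and DESeq2 called 1. The count of 45 was 28, 19 and 17 without untreated replicate 1, 2 or 3, 24 without treated replicate 1, and 47 without treated replicate 2.

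*Neurog2* had the smallest adjusted p of these differences. Its log2 fold change was -3.97 at D4H8, -0.60 at D5 and 0.46 at D6, and the effect at D5 was higher than that at D4H8 by 3.36 (SE 0.39, adjusted p = 0.00155). *Olig2* followed the same order, with -3.91, -0.58 and 0.35, and a difference of 3.34 (SE 0.63, adjusted p = 0.0265). *Prdm8* had -3.48, -0.70 and 0.01, and a difference of 2.79 (SE 0.49, adjusted p = 0.0167). *Slc30a1* went the other way, with 2.15 at D4H8, 0.86 at D5 and 0.37 at D6, a difference of -1.31 (SE 0.25, adjusted p = 0.0249). None of the 5 motor neuron factors, the glycolysis and hypoxia genes or the integrated stress response genes passed adjustment in this test of the difference between D5 and D4H8, where *Isl1* had an adjusted p of 0.0589. *Isl1* had log2 fold changes of -2.44, -0.70 and 0.02 at the 3 stages, and *Lhx3* had -3.10, -1.11 and -0.29. *Isl2* had -1.94, -1.97 and -0.53. *Ldha* had -2.53, -1.66 and -0.24. *Slc7a11* had 0.77, 2.75 and 0.47, and *Trim66* had 2.77, 5.46 and 1.02. For all 5 motor neuron factors the fold change at D6 was nearer to 0 than that at D5, but none of these differences passed adjustment. That of *Isl2* was -1.45 (SE 0.41) and passed only the unadjusted threshold.

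**Figure D5:**
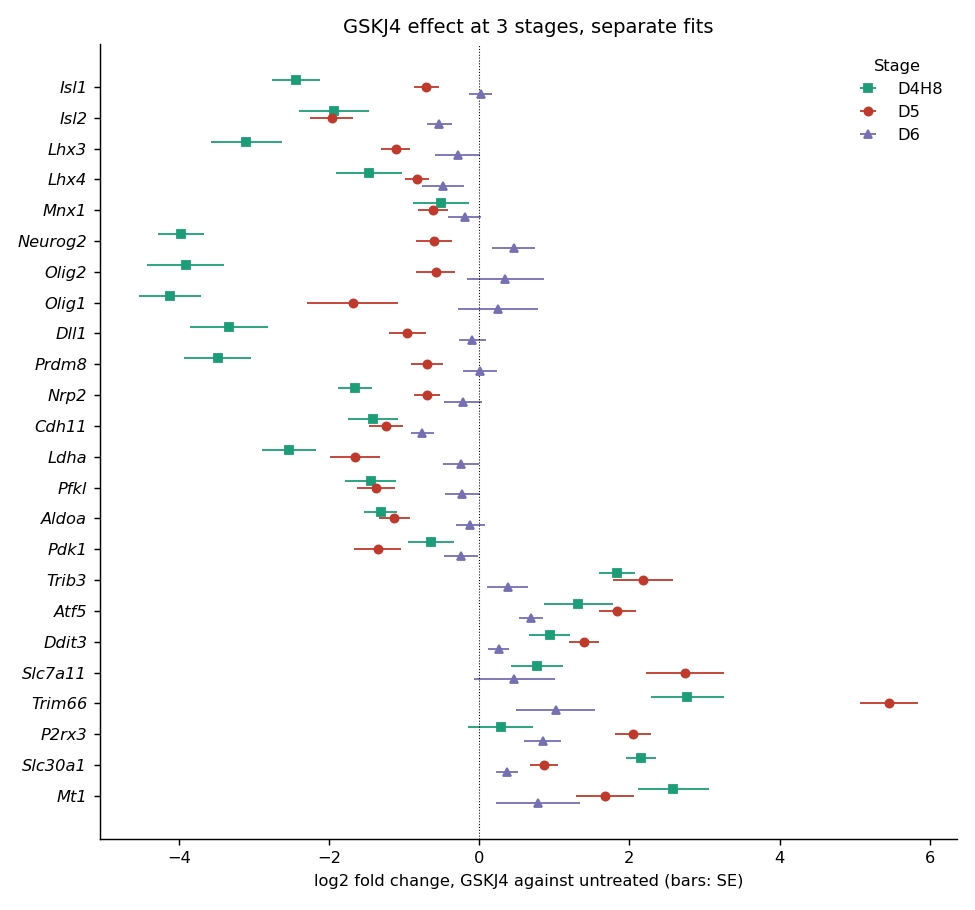
The horizontal axis gives the log2 fold change of GSKJ4 against untreated at D4H8, D5 and D6 from separate edgeR fits on 6 libraries each, with bars for 1 SE, for 24 genes on the vertical axis. *Neurog2*, *Olig2* and *Prdm8* lie near -4 to -3 at D4H8 and between -1 and 0 at D5, while *Isl2* lies at about the same place at both.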

How the data were processed

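The authors deposited a table of raw read counts per gene and a table of FPKM values for the same 21 libraries. By the study's methods, reads were trimmed with Fastp 0.23.1, aligned to mm10 with Hisat2 2.1.0, sorted with SAMtools 1.9 and counted with HTSeq-count 0.11.0, and the study's own tests used DESeq2 1.42.0. The strand setting of the counting was not given in the sources used here. Overlap with a gene on the other strand is not marked above for every gene. It also holds for *Aldoa*, *Ina*, *Crmp1*, *Olig1*, *Irx3*, *Prdm8*, *Pou3f1*, *Dll4*, *Jmjd6*, *Ccnd1*, *Cdkn1c*, *Slc30a1* and *Mt2*, among others. The FPKM values that the authors deposited were recomputed from counts and gene lengths for 55400 genes and differed by at most 0.005. They serve here to show levels, and tests used the counts.

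Libraries were grouped by their labels. Counts of the 6 D5 libraries were fitted with edgeR 4.0.16 (R 4.3.3, TMM scaling, low genes filtered with a minimum count of 10, quasi-likelihood test, Benjamini-Hochberg adjustment). A gene was called at an unadjusted two-sided p under 0.05. The interaction tests used the 18 libraries of D4H8, D5 and D6. Gene positions are those of GRCm38, and summaries and plots used Python 3.11.15 with pandas 2.3.3 and matplotlib 3.10.9. Depth was from 15431424 to 18798740 counts per library.

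Named genes were the motor neuron factors and other D5 genes the study names, the Kdm6 enzymes and Ezh2, the 12 raised and 12 lowered genes of largest fold change (mean of at least 100 counts, groups not overlapping), genes past adjustment, and up to 4 genes of lowest p per list. Other list members named were chosen after their values were seen. Members, lists and libraries were chosen with earlier results of these data known. Alternatives were DESeq2, limma 3.58.1, other scalings and filters, a replicate block and each library left out. Only the main edgeR fit at D5 was tested on simulated counts. These had the same fixed spread for all genes and no excess of zeros in treated replicate 2.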

Additional observations from a re-analysis of the deposited data

Results flagged for a closer look

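The GSKJ4 effect at D5 differed from that at D4H8 in 45 genes by adjusted p in edgeR's quasi-likelihood test of the difference. For *Neurog2* the log2 fold change at D5 minus that at D4H8 was 3.36 (SE 0.39, adjusted p = 0.00155), for *Olig2* it was 3.34 (SE 0.63, adjusted p = 0.0265) and for *Prdm8* 2.79 (SE 0.49, adjusted p = 0.0167). *Slc30a1* had a difference of -1.31 (SE 0.25, adjusted p = 0.0249). Groups of 3 libraries are too small for a test of single outlying libraries.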

How the results depend on the processing

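At the adjusted threshold, genes raised and lowered at D5 numbered 29 and 40 with DESeq2, 49 and 79 with no filter on low counts, 5 and 4 in one fit over the 21 libraries, 4 and 2 with limma voom and library weights, 17 and 23 with DESeq2 and treated replicate 2 left out, and 3 and 0 among genes with a mean of 100 counts. These last 3 settings were chosen after seeing the data. At the unadjusted threshold they numbered 610 and 510 with DESeq2, 757 and 796 with no filter, and 724 and 708 in the fit over 21 libraries. Leaving out each library in turn gave from 1 to 6 raised and 0 lowered past adjustment, and from 202 to 781 raised and from 234 to 781 lowered at the unadjusted threshold. With the replicate number as a block, 4 genes were raised and 0 lowered past adjustment, and 550 and 677 at the unadjusted threshold. Same-numbered libraries correlated in their deviations by 0.255, 0.0596 and 0.232, and different-numbered ones by -0.247 to 0.0261. Each correlated best with its own number. Same-numbered cultures may therefore have been paired, which the labels do not state, and the main fit did not pair them. The effect at D5 differed from that at D4H8 in 236 genes with DESeq2, 351 with no filter and 321 with the replicate block, and in 17 to 47 with each library left out, and from that at D6 in 1 with DESeq2 and 13 with no filter. The genes that rise or fall from D4 to D6 numbered 6961 at a log2 fold change of at least 1. Over 2313 alternatives of the 146 named genes, none changed direction after being called, 108 lost the call and 109 gained it, and 53 of the 86 called genes were called in each alternative that tested them. Below a mean of about 100 counts, the excess of zeros in treated replicate 2, whose total count was close to those of its group, limits what can be seen, and its cause was not tested.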
